A study of Mus musculus with 10 samples.

Results

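Lactylation of histone H3 at lysine 9 (H3K9lc) was compared gene by gene between an untreated cardiac fibroblast library (NC) and a TGF-β-treated one (TGF). Read counts over all listed H3K9lc regions were added up for each assigned gene, and genes with 50 or more reads over both libraries were kept, which left 6641 of the 12929 genes listed in this comparison and of the 13976 listed in either H3K9lc comparison of the study. The study profiled primary mouse cardiac fibroblasts from heart by CUT&Tag in 10 libraries, with a small interfering RNA against hexokinase 1 in the other arm. The NC library carries the treatment label None, and the TGF library carries TGF-b. The title of the NC library does not name an antibody, and it was read as H3K9lc because its label points to the H3K9lc table. Of the TGF libraries, the one titled with H3K9lc was taken as the TGF side, and another, whose labels name no antibody, was not used here. With 1 library on each side there was no replicate error, no test was possible, and every interval below is a 95% counting interval, which leaves out all other error, PCR duplication included.

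In CUT&Tag, an antibody brings a transposase to the chromatin that carries the epitope, and the DNA cut and tagged there is sequenced, so that reads pile up where the mark lies. Lactylation is an acyl mark that draws on lactate, the end product of glycolysis, and is placed on histone lysines that can also be acetylated. TGF-β is the cytokine that turns quiescent cardiac fibroblasts into contractile, matrix-secreting myofibroblasts through SMAD2 and SMAD3. Reads can also come from DNA that exists in very many copies, such as the TTAGGG repeats that cap chromosome ends and the satellite arrays around mouse centromeres, of which the assembly holds only small pieces.

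The libraries held very different numbers of reads in the listed regions. The 65853 regions covered 30.7 Mb and held 115572 NC reads (3.77 per kb) and 2313288 TGF reads (75.4 per kb), so that NC supplied 4.76% of all reads and the limit of 50 reads was in effect a limit on TGF reads. Ratios below are TGF over NC after both libraries were brought to equal totals over all listed regions, on a log2 scale with 0.5 reads added to each count. Total sequenced reads per library were not used here, so deeper sequencing and a genome-wide rise of the mark cannot be told apart in these totals. Equal totals take out both, and each ratio compares a gene only with the other listed regions. The kept genes took 94.4% of the NC reads and 94.9% of the TGF reads, in 55956 regions over 26.9 Mb. The median kept gene had 5.0 NC reads and 134 TGF reads.

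Reads from the untreated library reached nearly all kept genes, but thinly. Of the 6641 kept genes, 202 had no NC read (3.04%, interval 2.64 to 3.48), 2012 had 1 to 3, and 83 had 100 or more. Absence of NC reads followed the depth of a gene. Among the 2262 genes with 50 or more but under 100 reads over both libraries 176 lacked NC reads (7.78%, interval 6.71 to 8.96), among the 2041 genes with 100 or more but under 200 reads 26 did (1.27%, interval 0.834 to 1.86), and among the 1605 genes with 200 or more but under 500 reads there were 0, which allows up to 0.230%. A gene with 50 reads would hold 2.4 NC reads at equal totals, so a count of 0 there lies close to what the depth can show. Among the 6288 genes that were not kept, 2281 had no NC read.

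The NC reads were concentrated in few places. The 10 regions with the most NC reads held 18.9% of all NC reads (interval 18.6 to 19.1), against 9.03% of the TGF reads. The first 100 regions, over 89.3 kb, held 38.5% of the NC reads and 22.3% of the TGF reads. At the other end, 8167 regions were called as a peak in NC alone, and 72.5% of them rested on a single NC read, with at most 8. In 56.2% of these NC-only regions the raw count was nonetheless higher in TGF. Only 1055 regions were called in both libraries, and they held 40.5% of the NC reads (46829) and 578759 TGF reads in 0.74 Mb.

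**Figure D1:**
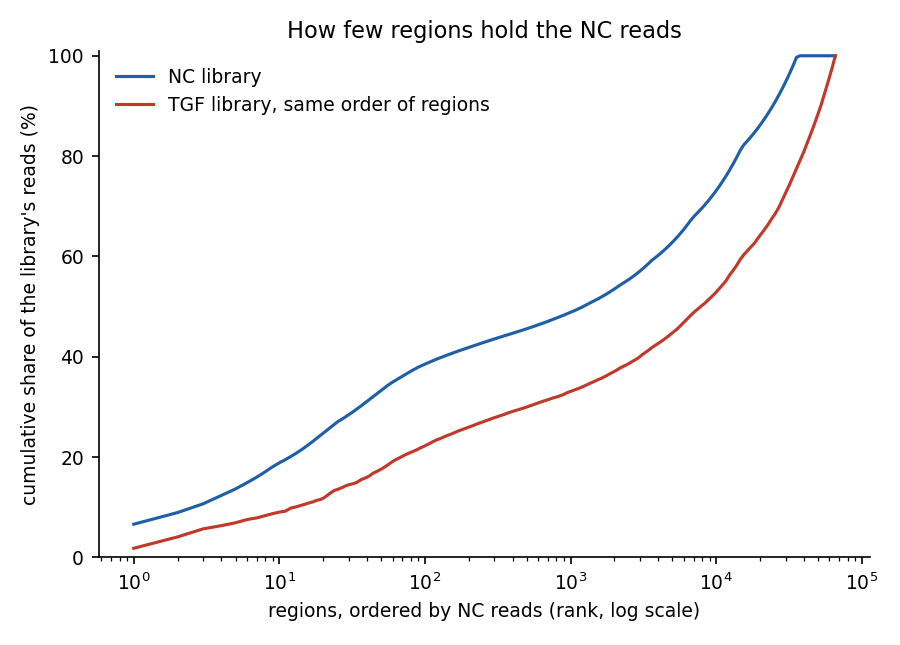
Cumulative share of each library's reads (%) over the 65853 regions ordered by their NC reads (log scale); the TGF curve follows the same order of regions. The NC curve reaches 18.9% at 10 regions and 38.5% at 100, where the TGF curve stands at 9.03% and 22.3%.

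The deepest NC regions were mostly repeated DNA. Regions were sorted by their reference sequence into those that consist of TTAGGG units over at least 50% of their bases, those that share at least 20% of their 15-base words with the satellite array on chromosome 9, those that copy the mitochondrial genome, and the rest, split by how often their 31-base words occur in the genome. The 15-base words of the array were taken from regions assigned to Mir101c that were deep in NC. These classes were drawn up after the counts had been seen. Among the 40 regions with the most NC reads, 11 were TTAGGG repeats, 18 belonged to the satellite array and 3 were mitochondrial copies. The satellite array has a unit of 234 bases, the unit of the mouse major satellite that lies beside the centromeres. A unit of the array and its copy on chromosome 2 are printed here because they stand for the class that holds the most NC reads of the 3. The sequences are from GRCm38, plus strand, and lie at chr9:3034495-3034728 and chr2:98666663-98666896. In the first, which is 1 unit of the array, capitals mark the 12 of 234 bases that differ from the base 234 positions further on; in the second, which lies within the exon-annotated region assigned to Lrrc4c, capitals mark 15-base words shared with the chromosome 9 array on either strand, 215 of 234 bases.
Satellite unit near Mir101c: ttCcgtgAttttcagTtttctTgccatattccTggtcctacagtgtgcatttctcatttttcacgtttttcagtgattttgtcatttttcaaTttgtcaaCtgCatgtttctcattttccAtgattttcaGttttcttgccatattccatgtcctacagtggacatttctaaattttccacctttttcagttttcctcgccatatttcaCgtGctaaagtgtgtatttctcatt
Satellite copy at Lrrc4c: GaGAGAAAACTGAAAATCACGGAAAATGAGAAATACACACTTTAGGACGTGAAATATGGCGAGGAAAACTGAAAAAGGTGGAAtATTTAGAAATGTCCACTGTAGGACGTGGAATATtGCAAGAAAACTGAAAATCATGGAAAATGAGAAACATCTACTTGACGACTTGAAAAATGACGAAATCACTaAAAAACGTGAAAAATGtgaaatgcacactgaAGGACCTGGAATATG

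Relative to the other listed regions, these repeats were lower in TGF. The 29 satellite array regions (18702 bp) held 22080 NC reads, 19.1% of the library (interval 18.9 to 19.3), and 181236 TGF reads, 7.83%, a log2 ratio of -1.29 (interval -1.31 to -1.27). The 32 TTAGGG regions (11361 bp) held 9105 NC reads (7.88%) and 79958 TGF reads (3.46%), a log2 ratio of -1.19 (interval -1.22 to -1.16). Raw TGF counts were thus higher than raw NC counts in both classes, and only their shares were lower. The direction was shared by most regions of each class: 28 of 29 satellite regions and 30 of 32 TTAGGG regions lay below equal totals. Of the 29 satellite regions, 18 were assigned to Mir101c, so their count is not independent of the NC depth used to pick the array words. The 15 TTAGGG regions within 300 kb of a chromosome end, on 14 chromosomes, had a log2 ratio of -1.27, and the 17 elsewhere -0.93. The 7 mitochondrial copies were closer to equal, with 1162 and 18508 reads and a log2 ratio of -0.33 (interval -0.42 to -0.24).

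Other repeated DNA was not lower in its share of TGF. The 21426 remaining regions whose sequence occurs 10 or more times, such as copies of interspersed elements, had a log2 ratio of 0.38 (interval 0.36 to 0.39), the 9068 regions with 2 to 9 copies had 0.35 (interval 0.33 to 0.38), and the 35291 regions under 2 copies had 0.17 (interval 0.15 to 0.18). On reads per kb, regions under 2 copies held 2.27 in NC and 51.1 in TGF, whereas the satellite regions held 1181 and 9691.

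**Figure D2:**
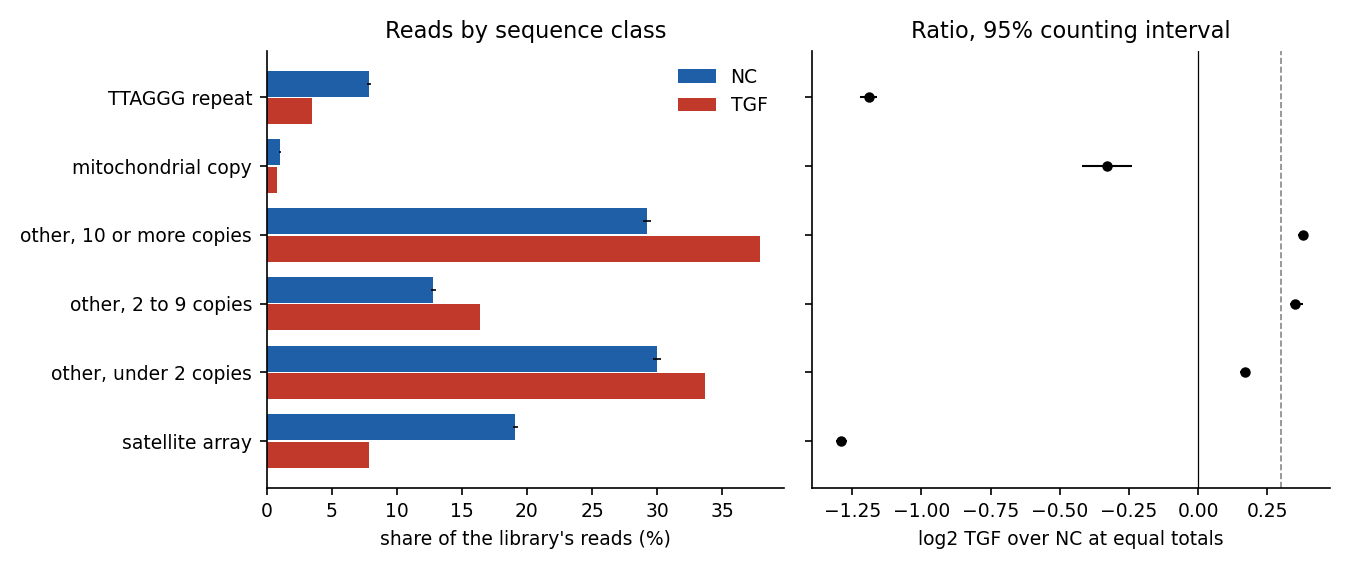
Left, share of each library's reads (%) in 6 sequence classes of regions, with the exact 95% counting interval on the NC bars; right, log2 ratio of TGF over NC at equal totals with its 95% counting interval, a solid line at 0 and a dashed line at the median gene (0.30). The satellite array and TTAGGG classes lie at -1.29 and -1.19, and the 3 classes outside these repeats lie above 0.

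The 3 chromosomes with the lowest ratios and the exon class held many of the same repeat reads. Chromosomes 2, 9 and 14 had log2 ratios of -0.84, -0.58 and -0.37, and without the 3 repeat classes, at the same totals, 0.27, 0.25 and 0.33. Without those classes every chromosome lay between 0.10 (chromosome 19) and 0.43 (chromosome Y). Regions annotated as exon had a log2 ratio of -0.86 (interval -0.88 to -0.84; 24099 NC and 265630 TGF reads in 1.35 Mb), whereas introns stood at 0.11, promoters within 3 kb of a start site at 0.15, and distal intergenic regions at 0.18. The exon class contains the satellite copies assigned to Lrrc4c and Mir101c, and without the 3 repeat classes, at the same totals, it had 3790 NC and 97280 TGF reads, a log2 ratio of 0.36. Promoter regions held 5.55% of the NC reads and 6.15% of the TGF reads.

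Most kept genes came out above 0, while the repeats took a larger share of NC. Of the 65853 regions, 56576 were called as a peak in TGF alone, and these had a log2 ratio of 0.57. Regions called in both libraries had -0.70 and NC-only regions -3.00. The listing of regions and the limit of 50 reads thus lean to TGF reads. Their part in the values above 0 was not tested. The median kept gene had a log2 ratio of 0.30 (quartiles -0.11 and 0.75), and 4601 of 6641 genes (69.3%) lay above 0. A gene was called when it differed by at least 2-fold and its counting interval excluded equal totals. By this rule 354 genes were higher in TGF (5.33% of those kept) and 56 were lower (0.843%), so that 86.3% of the calls were higher. This split depended on the scaling and on which genes were kept. At the same scaling, a filter on the mean at equal totals gave 316 higher and 104 lower genes (75.2% higher). A limit of 20 reads gave 354 and 96 (78.7% higher). With the 3 repeat classes left out and the totals taken anew, the median was 0.01 and 119 genes were higher against 108 lower (52.4% higher), with all 119 among the 354 higher genes of the first scaling and 37 of the lower genes among its 56. With the median gene set to 0, 112 genes were higher and 134 lower. On the normalized values that the authors deposited, 1080 genes were higher and 16 lower (98.5% higher). Values below are given at equal totals, so that a gene at 0.30 stands with the median gene, and calls that did not hold with the median gene set to 0 are named as such.

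**Figure D3:**
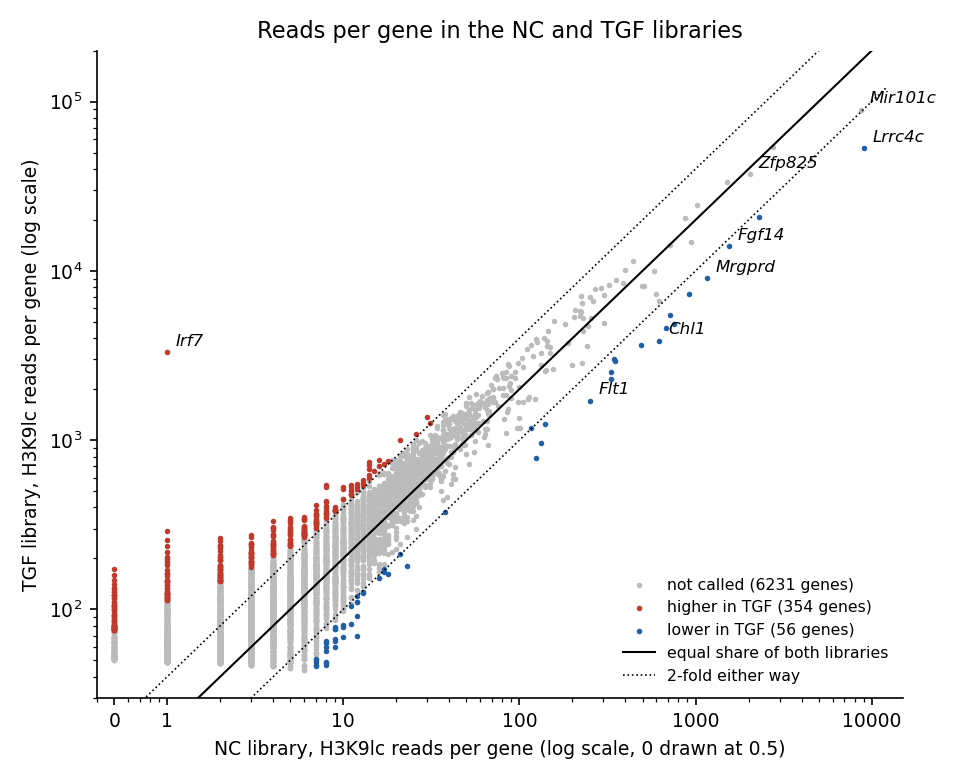
NC reads against TGF reads for the 6641 kept genes (both axes log scale, genes with 0 NC reads drawn at 0.5), with a solid line at equal shares of both libraries, dotted lines at 2-fold either way, 354 genes higher in TGF in red and 56 lower in blue. Irf7, at 1 and 3301 reads, stands apart from all other genes, and the deep genes below the lower line, such as Lrrc4c at 9056 and 53077 reads, mostly hold satellite or TTAGGG regions, with Chl1 (624 and 3871) as an exception.

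Irf7, which encodes a transcription factor of the type I interferon response, had the largest lower bound of all kept genes. It had 1 NC read and 3301 TGF reads in a single region of 690 bp, a ratio of 165-fold with a counting interval on the log2 scale of 4.89 to 12.67. At equal totals the region would have held 165 NC reads. Its TGF level of 4784 reads per kb compares with a median of 34.9 reads per kb over regions under 2 copies, and it ranked 10 among those 35291 regions by TGF reads. The signal was narrow: the 2 other regions listed within 200 kb held 34 TGF reads and 0 NC reads together. Among regions with 100 or more TGF reads and at most 1 NC read, of which there were 106, the next deepest (near Pisd-ps1) had 183 TGF reads. The region is annotated as promoter but lies over the end of the gene body, at chr7:141263456-141264145 (GRCm38), 2336 bases inside the start of the principal transcript of GENCODE vM21, which runs from 141263183 to 141266481 on the minus strand. It covers exon 9 whole and exon 8 whole out of 10 exons, 509 coding bases and 181 intron bases, and its lowest coordinate is also that of exon 9 (141263456 to 141263574). The stretch from 141263540 to 141263719 is printed because it crosses the end of exon 9, the intron and the start of exon 8 as they lie on the plus strand, with coding bases in capitals.
Irf7, plus strand: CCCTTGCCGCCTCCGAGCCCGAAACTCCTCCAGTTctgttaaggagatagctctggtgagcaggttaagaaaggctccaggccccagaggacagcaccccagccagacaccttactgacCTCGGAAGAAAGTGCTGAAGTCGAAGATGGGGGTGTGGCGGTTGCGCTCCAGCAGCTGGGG

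In the siHK1 library, which was set against the same TGF library in the other H3K9lc comparison, Irf7 had 4 reads against the same 3301. Counts per region do not separate reads of the chromosomal locus from reads of a spliced Irf7 coding sequence, were any present. In other experiments the study transduced cardiac fibroblasts with a FLAG-IRF7 adenovirus, and its reagents list a human IRF7 adenovirus and a mouse Irf7 AAV. The titles of the libraries used here name no such virus, and its presence was not tested. The split of reads between exons and intron, which bears on this, was not analysed here, so the value is that of the region as listed.

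The next higher genes were far smaller in number of reads and, like Irf7, rested on an almost empty NC side. Pard3, a scaffold protein of cell polarity, had 0 NC reads and 172 TGF reads over 8 regions, at least 2.86-fold higher when NC is set to the 3 reads that a count of 0 allows. Neurl1a, a ubiquitin ligase, had 0 and 159 (at least 2.65-fold). Agtr1a, the type 1 receptor for angiotensin II through which fibroblasts are driven towards matrix production, had 0 and 149 reads over 8 regions (at least 2.48-fold), the deepest of them in an intron. Hydin, a protein of motile cilia, had 0 and 142 (at least 2.36-fold), and Nefm, a neurofilament subunit, had 0 and 134 (at least 2.23-fold).

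Igf2, the insulin-like growth factor, had 1 NC read and 204 TGF reads over 3 regions, a ratio of 10.2-fold with a log2 interval of 0.86 to 8.66, and its NC read lay at the promoter. Vmn1r64, a pheromone receptor, had 1 and 217 reads (10.8-fold, log2 interval 0.95 to 8.75). The remaining 4 of the 12 genes with the largest lower bounds were predicted or unnamed transcripts, Gm5087 (1 and 292), 4930556N09Rik (1 and 257), 1700092E19Rik (1 and 237) and Gm10046 (2 and 265). The 7 genes from Pard3 to Vmn1r64 kept their call with the median gene set to 0, but on the authors' normalized values only Igf2 of them did.

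The 354 higher genes had few NC reads, as the call requires, and a higher call needs 76 or more reads over both libraries. Their median was 220 reads, against 178 among the 5227 kept genes with at least 76. Of the 354 higher genes, 66 had 0 NC reads, 127 had 1 to 3 and 161 had more, up to 31. The higher genes had a median of 7.0 regions per gene against 6.0 among those 5227 genes, their TGF level 58.6 reads per kb against 54.4, and their NC level 0.820 reads per kb against 2.08. A promoter region was present in 27.1% of them and in 29.4% of the genes with enough reads. The share of region bases masked as repeats was 60.5% at the median higher gene and 62.5% at the median gene with enough reads.

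The 56 lower genes fell into 2 kinds. The first kind comprised 19 genes with 100 or more NC reads, in which a single region supplied a median of 98.4% of the NC reads and never less than 54.0%. In 14 of the 19 that region was a TTAGGG repeat and in 4 it was a satellite array region. With the repeat classes left out, 15 of the 19 genes still had regions, at a median log2 ratio of -0.12 at the same totals and with 1 gene, Chl1, still called lower. The second kind comprised the other 37 genes, of which 36 had 7 to 23 NC reads, and 1 of which owned a region of the repeat classes. Both kinds depended on the scaling. With the median gene set to 0, all 19 deep genes and all 37 others were still called lower, on the authors' normalized values 15 of 19 and 0 of 37, and with equal totals over the regions called in both libraries 1 of 19 and 1 of 37.

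Lrrc4c, a synaptic adhesion protein, was the deepest gene in NC and had the smallest upper bound. It had 9056 NC reads and 53077 TGF reads over 164 regions (log2 ratio -1.77, interval -1.80 to -1.74), of which 7656 and 42265 lay in a single region of 1081 bp on chromosome 2, 1198151 bases from the start site, the satellite copy printed above. Without the repeat classes, at the same totals, Lrrc4c had 123 and 3132 reads, a log2 ratio of 0.34. Rab10os, an antisense transcript, had 757 and 4887 reads (log2 ratio -1.63), with 743 of the NC reads in 1 satellite region, and the remainder of the gene stood at 0.41. Flt1, a receptor for vascular endothelial growth factor, had 251 and 1714 reads (log2 ratio -1.55, interval -1.74 to -1.35), with 245 NC reads in an intronic region that is 65.5% TTAGGG units, and 0.59 outside it. Adgre5, an adhesion receptor of leukocytes, had 331 and 2284 reads (-1.54) with 326 NC reads in a TTAGGG region, and 0.30 outside it.

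Several of these genes took their NC reads from a chromosome end. The TTAGGG regions of Mrgprd, Tmem196, Fgf14, Wls, Cr2, Csf2ra, Tcstv3, Gm45871 and A630089N07Rik each lay 100 kb from an end of the assembled chromosome, where the assembly leaves the terminal repeats as a gap. Mrgprd, a receptor of sensory neurons, owned a single region 26091 bases from its start site, a TTAGGG repeat, with 1164 NC and 9025 TGF reads (log2 ratio -1.37, interval -1.46 to -1.28). Tmem196 had 683 and 4596 reads (-1.57), 679 of the NC reads in a region that is 98.6% TTAGGG units. Fgf14, a regulator of sodium channels, had 1545 and 13943 reads (-1.15), 1508 of the NC reads in a region that is 98.1% TTAGGG units, and -0.16 outside it. Wls, which carries Wnt proteins to the cell surface, had 329 and 2517 reads (-1.39) and 0.14 outside its TTAGGG region. Away from the ends, Phf21a, a reader of unmethylated histone H3, had 124 and 780 reads (-1.67), 122 of the NC reads in a TTAGGG region 458 bases from the start site. The remaining 3 of the 12 genes with the smallest upper bounds besides Chl1 were A630089N07Rik, 4933422A05Rik and Gm45871, at -1.42, -1.39 and -1.33, each with its deepest region in one of these repeat classes.

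Chl1, an adhesion protein of the L1 family, was the exception among the deep lower genes. It had 624 NC reads and 3871 TGF reads (log2 ratio -1.69, interval -1.81 to -1.57), 609 and 3571 of them in a 273 bp intronic region at chr6:103649048-103649320 that was neither a TTAGGG repeat nor a copy of the 234-base satellite. That region holds the letters of the CENP-B box (TTCG, 4 free bases, A, 2 free bases and CGGG, both strands searched), the sequence that the centromere protein CENP-B binds in the minor satellite of the mouse. The letters occur in 17 of the 65853 regions (0.0258%). Besides the deepest regions of Chl1 and Lrrc4c, the other 15 together held 1384 NC and 10090 TGF reads (log2 ratio -1.46). That sum was not broken down by region, so it does not show how many of the 15 were lower. Outside its deepest region Chl1 had 15 and 300 reads (-0.05). The stretch at chr6:103649114-103649234 (GRCm38, plus strand) is printed with the box letters in capitals, and a match of letters does not show that the protein binds there. The region holds 1 such box, and 57.9% of its bases were equal to those 121 positions further on. The label below rests on these letters and does not show that the region is minor satellite.
Chl1, minor satellite-like: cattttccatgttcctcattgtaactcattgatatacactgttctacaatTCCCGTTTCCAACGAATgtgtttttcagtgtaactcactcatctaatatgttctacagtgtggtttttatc

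Not every gene deep in NC was called lower. Mir101c, a microRNA gene to which the satellite block at the start of chromosome 9 is assigned, had 8692 NC and 89844 TGF reads (log2 ratio -0.95, interval -0.99 to -0.92), just short of the 2-fold limit, and was called lower with the median gene set to 0. 2700054A10Rik (2739 and 53850, -0.03), Zfp825 (2031 and 37303, -0.12) and Pisd-ps2 (1514 and 33674, 0.15) were also among the 8 genes with the most NC reads, and these 3 stood close to equal totals. The deepest regions of 2700054A10Rik and Zfp825 occur 10 or more times in the genome, and that of Pisd-ps2 under 2 times. Gm5458, a predicted gene, had 2284 and 20789 reads and was lower (-1.14).

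**Figure D4:**
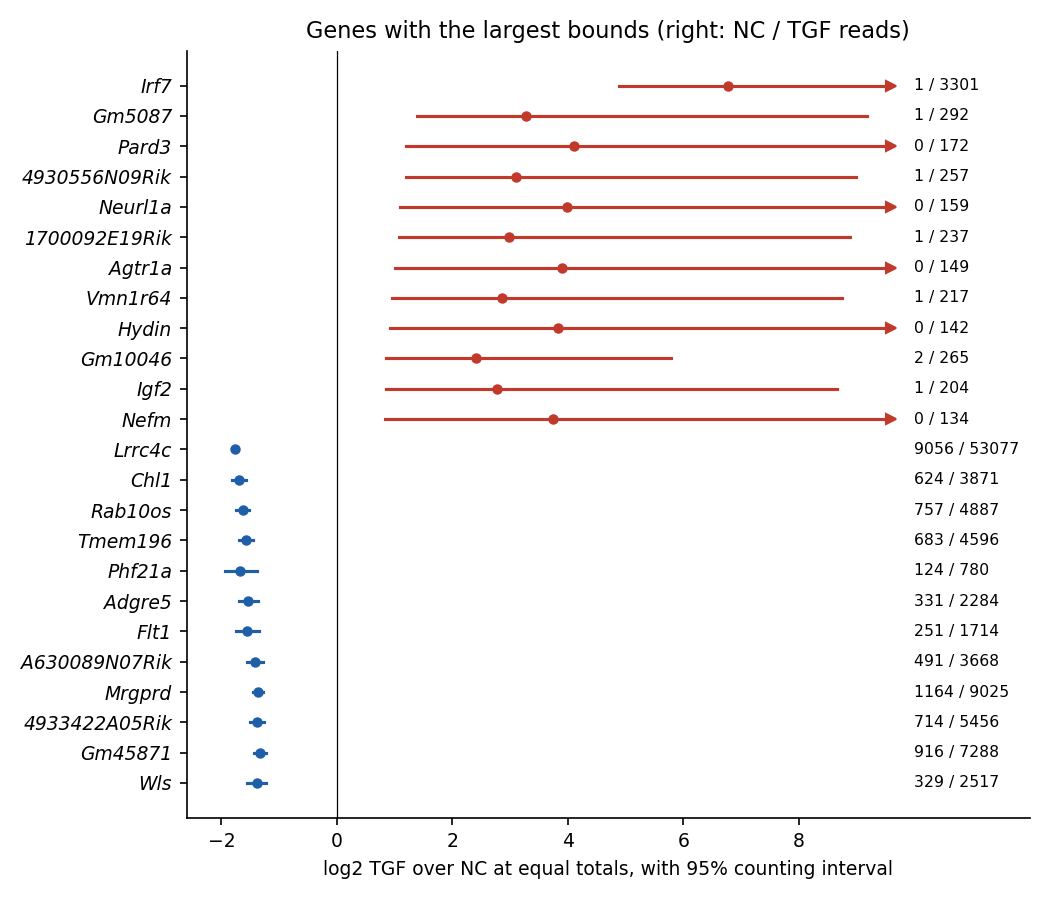
Log2 ratio of TGF over NC at equal totals (points) with the 95% counting interval (lines; arrows mark intervals that run on) for the 12 higher genes with the largest lower bounds (red) and the 12 lower genes with the smallest upper bounds (blue), with NC and TGF reads at the right. The higher genes, Irf7 included, have 0 to 2 NC reads and wide intervals, and the lower genes have 124 to 9056 NC reads and narrow ones.

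The low-count lower genes were of mixed function and lay near the limit of the rule, which at 50 reads needs 7 NC reads. Cd48, a surface protein of leukocytes, had 12 NC and 70 TGF reads (log2 ratio -1.83, upper bound -0.76), and 10 of its NC reads lay in 1 region. Inpp5a, an inositol phosphate phosphatase, had 8 and 47 (-1.84), and Mfge8, a secreted protein that marks dying cells for uptake, 8 and 49 (-1.78). Impact, a regulator of translation, had 21 and 211 (-1.02), and Prom1, a membrane protein of stem cells, 17 and 166 (-1.07). An NC peak was present in 33 of the 36 genes with fewer than 25 NC reads, against 3365 of all 6641 kept genes and 91 of the 354 higher ones. A region enters the list when a peak is called in either library, so a region listed through NC alone had NC reads by construction, and when only regions with a TGF peak were used, 11 of the 37 genes were still lower. These 5 genes were chosen for description after their values had been seen.

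Of the 12 genes that the study follows, 10 had a listed region and 8 were kept. Apart from Irf7 none was called at equal totals. Hk1, the hexokinase that starts glycolysis, had 1 NC read and 65 TGF reads over 5 regions (3.25-fold, log2 interval -0.83 to 7.02). Axin2, a feedback inhibitor of Wnt signalling, had 45 and 1129 (log2 ratio 0.31, interval -0.10 to 0.79), which is the level of the median gene. Smyd3, a lysine methyltransferase, had 13 and 379 (0.49, interval -0.25 to 1.47). Col3a1, the fibrillar collagen of type III, had 13 and 260 (-0.05, interval -0.80 to 0.93), and Cdk1, the mitotic kinase, 8 and 82 (-1.04, interval -2.01 to 0.29). Cdk1 was called lower with the median gene set to 0 (-1.34) and without the 1% deepest regions (-1.40). Postn, a matricellular protein of activated fibroblasts, had 2 and 58 (1.45-fold, log2 interval -1.38 to 3.61), and Col1a2 2 and 56 (1.40-fold, log2 interval -1.44 to 3.56). Lox, which crosslinks collagen, had 0 and 45 reads and Slc40a1, the iron exporter, 1 and 23, and both were below the read limit. Acta2 and Col1a1 had no listed region. Hk1, Postn and Col1a2 held fewer than the 76 reads that a higher call needs, so no rise could have been called for them, whatever its size. Of the 8 kept genes, 5 held those reads.

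Genes of the TGF-β pathway did not share a direction. The calls in this and the following lists, mostly 1 or 2 per list, stand against 5.33% higher and 0.843% lower among all kept genes. A higher call needs 76 reads over both libraries, which 78.7% of all kept genes held. Among kept members, 4 of 6 TGF-β pathway genes, 1 of 4 contractile genes and 3 of 7 matrix glycoprotein and crosslinking genes held them. So did 2 of 3 glycolysis and lactate genes, 2 of 3 AP-1 genes and 4 of 7 Hox genes. Of 18 ligands, receptors and SMAD proteins, 11 were listed and 6 were kept, with a median log2 ratio of -0.08 against 0.30 over all kept genes, 0 higher and 1 lower. The lower gene was Smad2, a receptor-activated SMAD, with 12 NC and 120 TGF reads (log2 ratio -1.05, interval -1.86 to -0.01), close to both limits and no longer called on the authors' normalized values. Smad3, its partner, had 8 and 151 reads (-0.17, interval -1.10 to 1.15), and Ltbp1, which holds latent TGF-β in the matrix, 6 and 195 (0.59, interval -0.45 to 2.16). Of 16 feedback inhibitors and direct targets 6 were kept, at a median of 0.63, and 1 was higher: Smurf2, a ubiquitin ligase that degrades TGF-β receptors, with 4 and 239 reads (log2 ratio 1.41, interval 0.20 to 3.47), a call lost with the median gene set to 0. Pmepa1, an inhibitor of SMAD signalling, had 11 and 406 (0.82, interval 0.03 to 1.90) and Bambi, a decoy receptor, 12 and 338 (0.44, interval -0.33 to 1.46).

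Genes of the myofibroblast programme were covered thinly. Of 22 contractile and cytoskeletal genes 4 were kept, with a median of -0.19 and 0 called in either direction, among them Fhl2 (10 and 197 reads, -0.09), Cald1 (5 and 49, -1.15) and Mrtfa (3 and 57, 0.949-fold with a log2 interval of -1.70 to 2.24). Only 1 of these 4 genes held the 76 reads that a higher call needs. Of 18 collagens 10 were kept, at a median of 0.18, and 1 was higher: Col5a2, with 8 and 371 reads over 8 regions (log2 ratio 1.13, interval 0.22 to 2.43), a call lost with the median gene set to 0. Of 24 matrix glycoproteins and crosslinking enzymes 7 were kept, at a median of 0.05, and Lum, a proteoglycan of collagen fibrils, was higher with 2 and 236 reads (5.90-fold, log2 interval 0.69 to 5.61), a call that held under that scaling. Fbn2, a microfibril protein, had 13 and 161 (-0.74, interval -1.51 to 0.25), called lower with the median gene set to 0 (-1.04). Of 19 cardiac fibroblast genes 9 were kept, at a median of 0.10. Vim, the intermediate filament of mesenchymal cells, was higher with 0 and 93 reads (at least 1.55-fold at 3 NC reads, log2 lower bound 0.30). That call was lost without the 1% deepest regions and on the authors' normalized values. Wt1 (23 and 394, -0.25), Tbx18 (16 and 444, 0.43) and Runx1 (16 and 354, 0.10), transcription factors of the epicardium or of activated fibroblasts, were not called.

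Metabolic and chromatin genes were represented by few kept members. Of 22 glycolysis and lactate genes 3 were kept (Hk1, Pfkp and Slc16a1), at a median of 1.13, and 0 were called: Pfkp, a phosphofructokinase, had 14 and 381 reads (0.39, interval -0.32 to 1.33) and Slc16a1, a lactate transporter, 3 and 163 (2.71-fold, log2 interval -0.13 to 3.73). Of 23 enzymes that write or erase acyl marks 5 were kept, at a median of 1.01, and 2 deacetylases were higher: Hdac2 with 6 and 292 reads (log2 ratio 1.17, interval 0.14 to 2.74) and Hdac9 with 3 and 210 (3.50-fold, log2 interval 0.24 to 4.10). Both calls were lost with the median gene set to 0. Hdac4 had 12 and 283 reads (0.18). Of 26 interferon genes 4 were kept, at a median of 1.02, with Irf7 higher and Ifnar2 (5 and 197, 0.84) and Irf8 (7 and 142, -0.08) not called. Of 13 AP-1 genes 3 were kept and 0 were called, among them Fos (4 and 189, 1.07, interval -0.14 to 3.13) and Jun (7 and 173, 0.21). The 7 kept genes of 21 of the cell cycle had a median of 0.41 and 0 were called, with Cdkn1a, a kinase inhibitor, at 23 and 613 reads (0.38).

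Markers of other cell types were read in the same way, with the limit that this mark is not a measure of expression. Of 13 cardiomyocyte genes 2 were kept and 0 were called: Ryr2, the calcium release channel of the sarcoplasmic reticulum, had 11 NC and 183 TGF reads (log2 ratio -0.33, interval -1.14 to 0.76), and Nkx2-5, a cardiac transcription factor, had 3 and 77 (0.15, interval -1.24 to 2.67). Of 10 endothelial genes 6 were kept, at a median of 0.03. Tek was higher (0 and 94 reads, at least 1.57-fold at 3 NC reads, log2 lower bound 0.32), a call lost under the same scalings as Vim. Flt1 was lower through its TTAGGG region. Of 10 leukocyte genes only Adgre1 was kept (4 and 128 reads, 0.51). The 32 kept genes of 37 neuronal adhesion and synapse genes, many of which are very long, had 9930 NC and 74401 TGF reads in 1222 regions, 9056 of the NC reads at Lrrc4c alone, with a median of 0.14, 1 higher (Cntn1, 11 and 545 reads, log2 ratio 1.24, interval 0.46 to 2.32, lost with the median gene set to 0) and 2 lower (Lrrc4c, and Nrxn3 with 11 and 105 reads, -1.13, interval -1.97 to -0.02). Of 23 listed Hox genes 7 were kept, at a median of -0.67, and 0 were called; Hoxd3 had 7 and 69 reads (-1.11, interval -2.14 to 0.35) and Hoxb13, the deepest, 19 and 398 (0.03).

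Large gene families, the sensory receptors among them, were held to the same counts. Of 613 listed olfactory receptor genes 223 were kept, with a median of 0.25, 10 higher (4.48%, against 5.33% of all kept genes) and 2 lower, and 13 had no NC read (5.83%, against 3.04%). These genes were shallower, with 145 of 223 (65.0%) holding the reads that a higher call needs against 78.7% of all kept genes, and among genes with those reads 6.90% of the olfactory receptors and 6.77% of all were higher. Olfr1564 had 1 and 149 reads (7.44-fold, log2 interval 0.40 to 8.21), and was the only one of the 10 still called with the median gene set to 0, while Olfr773 (12 and 110, -1.18) and Olfr58 (7 and 51, -1.54) were lower. Of 284 listed vomeronasal receptor genes 195 were kept, with a median of 0.41, 9 higher (4.62%) and 1 lower, Vmn2r101 (9 and 67, -1.49). Among the higher ones were Vmn1r233 (2 and 200 reads, log2 interval 0.45 to 5.38) and Vmn2r68 (2 and 195, 4.87-fold, log2 interval 0.41 to 5.34). Of 290 listed Zfp zinc finger genes 191 were kept, at a median of 0.42, with 10 higher (5.24%) and 0 lower. Zfp414 had 0 and 126 reads (at least 2.10-fold at 3 NC reads, log2 lower bound 0.75). Zfp984 had 31 and 1261 (2.03-fold, log2 interval 0.51 to 1.59) and was not called with the median gene set to 0. The 8 kept ribosomal protein genes of 24 had a median of 0.21, with Rpl34 higher (4 and 246 reads, 1.45, interval 0.24 to 3.51), a call lost with the median gene set to 0. Of the 500 kept predicted Gm genes 27 were higher (5.40%) and 4 lower, and of the 606 kept Rik genes 40 were higher (6.60%) and 3 lower. With the median gene set to 0, the counts of higher and lower genes were 15 and 11 for Gm genes, 7 and 7 for Rik genes, 2 and 1 for Zfp genes, 4 and 1 for vomeronasal receptors and 1 and 3 for olfactory receptors. Among all kept genes 1.69% were then higher and 2.02% lower. On the authors' normalized values the same counts were, in that order, 78 and 2, 92 and 2, 65 and 0, 38 and 0, and 29 and 0. Among all kept genes 16.3% were then higher and 0.241% lower.

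**Figure D5:**
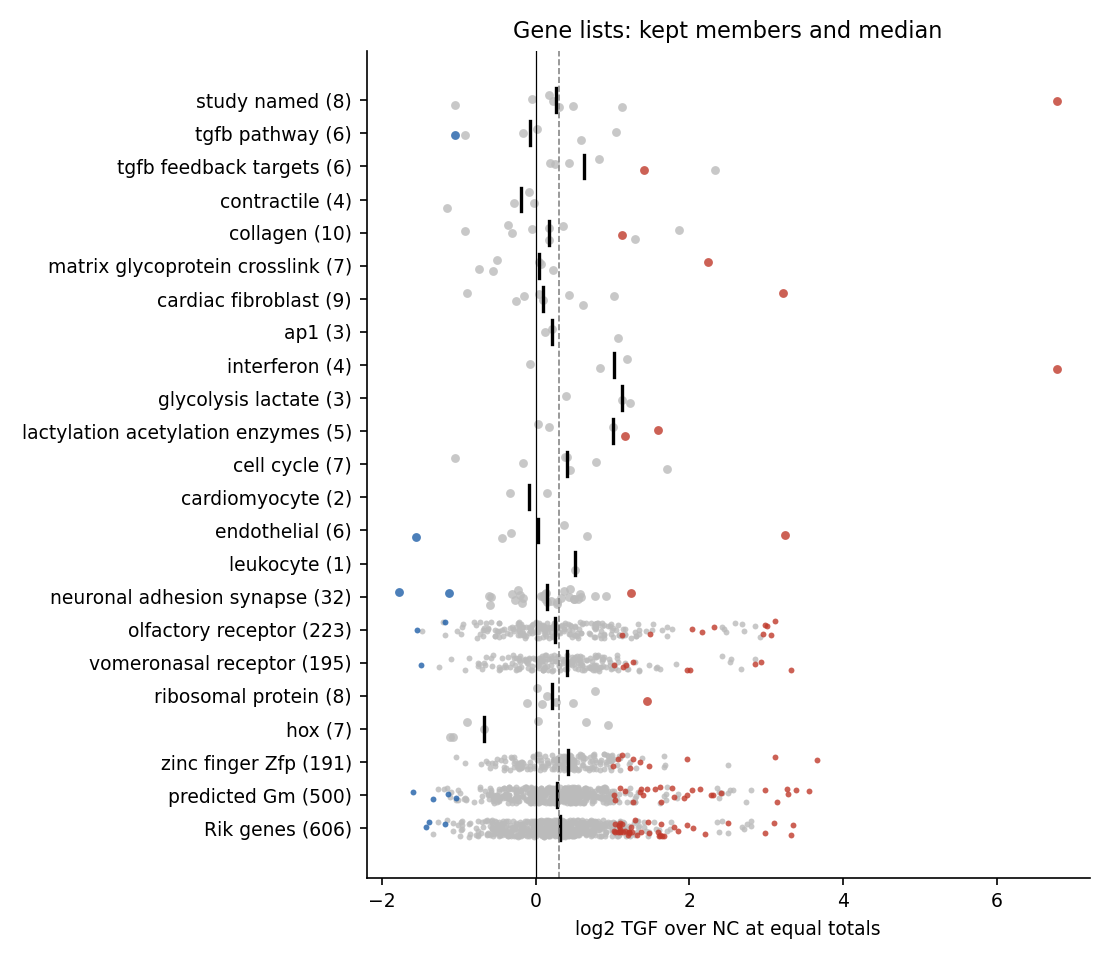
Log2 ratio of TGF over NC at equal totals for the kept members of 23 gene lists (number of kept members in brackets; red higher, blue lower, grey not called; vertical spread within a list has no meaning), with the list median as a black bar, a solid line at 0 and a dashed line at the median of all kept genes (0.30). The list medians run from -0.67 (Hox genes) to 1.13 (glycolysis and lactate), and Irf7 stands alone at 6.78.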

How the data were processed

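H3K9lc was measured by CUT&Tag in 1 untreated (NC) and 1 TGF-β-treated library of primary mouse cardiac fibroblasts. The methods of the study name Bowtie2 for alignment, MACS2 for peaks and the build GRCm39, whereas the submitters' processing notes list BWA 0.7.12 and mm10. Of the transcripts in the table that GENCODE vM21 (GRCm38) holds, 17716 of 17716 had the same coordinates, so GRCm38 is used here, counted from 1. The table deposited by the authors gives, for each region, raw read counts per library, a mark for a called peak, and a normalized log2 value per library, as well as the authors' log2 ratios, p-values and calls, which were not used. The deposited log2 value was log2(count + 0.5) for NC and 0.861 times that minus 2.63 for TGF. Another deposited table held 3 columns that match no sample; these were left out.

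Counts were added up per gene symbol (50 regions have none), genes with 50 or more reads over both libraries were kept, and libraries were brought to equal totals over all regions, which are not library depths. A call needed at least 2-fold with 0.5 reads added and an exact (Clopper-Pearson) 95% interval of the NC share that excludes equal totals. The scoring was tested on simulated data. Sequence classes used reference 15-base and 31-base words. Named genes were the 12 with the most extreme bound in each direction, the 8 with the most NC reads, the study's genes and, in each list, the 3 deepest kept members and up to 5 called ones each way; Gm and Rik genes were mostly counted. The members and gene lists were chosen with earlier results of these data known. Alternatives covered scaling, region classes, read limits, fold limits and the added count. Python 3.11.15, pandas 2.3.3, NumPy 2.4.6, SciPy 1.17.1 and numba 0.67.0 were used. Sequences come from the RefSeq GRCm38 genome. Results from the other antibodies were not used here. A list member and a repeat sequence are not reported here.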

Additional observations from a re-analysis of the deposited data

How the results depend on the processing

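With 1 library a side, leaving out a replicate was not possible. No paired analysis was possible because no group has more than 1 library. With the authors' normalized values 1080 genes were higher and 16 lower, at a median log2 ratio of 0.82; with equal totals over regions called in both libraries 2420 and 2, at 0.99; and without the 1% deepest regions 92 and 158, at -0.06, the direction of the median being the reverse of the reported one. Of the alternatives chosen after seeing the data, leaving out the 3 repeat classes gave 119 and 108 at 0.01, the median gene set to 0 gave 112 and 134 at 0.00, and leaving out each gene's deepest NC region, which removes NC reads by construction, gave 11 lower genes at 0.56.

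By region, those not distal intergenic gave 14 lower genes, a median of 0.51 and 129 genes without NC reads; those within 3 kb of a start site gave 11 higher and 10 lower of 519 genes, 0.12 and 34; and TGF peak regions gave 315 genes without NC reads. By read limit, lower genes numbered 96 at 20 reads, 33 at 100 and 104 with a filter on the mean at equal totals, and genes without NC reads 1001, 26 and 28. At 2-fold alone 1034 genes were higher and 158 lower, at 4-fold 114 and 0; adding 1 read moved the median to 0.19. Chromosomes 1 to 19 and X, or regions of 200 bp or more, left every count within 1.5 times and the median at 0.30.

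Among called named genes the direction reversed without the repeat classes for Lrrc4c (0.05), Rab10os (0.12), Adgre5 (0.01), Flt1 (0.31) and Gm3376 (0.43), a predicted gene not among the 67 below; without the deepest NC region for Rab10os (0.41), Adgre5 (0.30), Flt1 (0.59) and Wls (0.14); in regions not distal intergenic for Gm10046 (-1.43), Rab10os (0.07), Fgf14 (0.23), Olfr1294 (-0.25), Olfr57 (-0.13) and Vmn2r68 (0.00); and within 3 kb of a start site for Gm10046 (-1.81), Rab10os (1.20), Flt1 (0.28), A630089N07Rik (0.13), Olfr1294 (-0.63), Olfr57 (-0.22) and Vmn2r68 (-1.41). These alternatives hold fewer reads. Beyond that the cause was not tested. Over 67 named genes and all alternatives, 606 of 809 values kept both sign and call. Of the 156 values of genes not called at equal totals, 27 changed sign, among them Axin2 (-0.63 in regions not distal intergenic, -1.81 within 3 kb of a start site) and Zfp825 (1.35 in regions not distal intergenic).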

Other observations

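The siHK1 library shares its TGF partner with this comparison, and its values are given side by side only. TGF counts were the same in all 44088 regions with identical coordinates in both tables. TTAGGG regions took 7.88% of the NC reads, 3.46% of the TGF reads and 59611 siHK1 reads (a share with an interval of 4.17 to 4.23%), and satellite array regions 19.1%, 7.83% and 8.72% (interval 8.67 to 8.76), each within its own list of regions. The share of these repeats was thus highest in NC, which of the 3 libraries had the fewest reads in its listed regions (115572, against 1419023 for siHK1 and 2313288 for TGF), and the part of that number in the result was not tested.

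Regions of 300 bp or less had 0 NC reads in 62.1% of cases and regions over 1000 bp in 9.27%. Single regions with 50 or more reads numbered 8558, of which 724 had 0 NC reads (8.46%), the deepest of them at Tnfrsf22 with 156 TGF reads.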
